A study of Mus musculus with 9 samples.

Results

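The clustered histone genes are the genes named Hist1h, Hist2h, Hist3h and Hist4h with a suffix in the older mouse nomenclature, and they were followed here in whole kidneys of aged and young mice. Annotated under their current names, 31 of them had a probe set with exactly 1 gene symbol on the Affymetrix Mouse Gene ST array, of 19938 genes measured in this way and of 70 such histone genes in the RefSeq gene table. Each of the 31 had exactly 1 probe set of its own, and 30 are protein coding while H2bu1-ps is a pseudogene. By class they were 5 of 6 H1, 5 of 20 H2A, 11 of 19 H2B, 3 of 12 H3 and 7 of 13 H4 genes. By position 23 lie in cluster 1 on chromosome 13, 4 in cluster 2 on chromosome 3, 3 in cluster 3 on chromosome 11, and H4f16 on chromosome 6. Total RNA was taken from female wild type mice of mixed FVB/C57BL6 background, 5 of them 96 weeks and 4 of them 14 weeks old, with 1 array per mouse. The mice carried no transgene or treatment, and kidneys were snap frozen after perfusion. According to the labels 9 arrays carry an age, while 5 mice per age are named in the methods. Values are log2 expression values from the robust multi-array average (RMA), and their precision is limited by the number of arrays.

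Histones are the proteins around which DNA is wound: H2A, H2B, H3 and H4 form the core of the nucleosome, and H1 binds the DNA that links nucleosomes. Most clustered histone genes are transcribed during S phase, when new DNA has to be packed, and their messages end in a stem loop in place of a poly(A) tail. Histone variants from genes outside the clusters are made throughout the cell cycle and replace the S phase histones in cells that no longer divide, which are most cells of the adult kidney.

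The promoters of the clusters carry elements that differ between the classes, and those of a member from H1, H2A, H2B and H4 with a large difference or a bright signal are shown as the 130 bases before the RefSeq start site (GRCm38.p6, read 5′ to 3′ on the gene's strand). Capitals mark the letters AAACACA (the H1 box), ATTTGCAT (the octamer, bound by Pou2f1), CCAAT and TATAAA, each on either strand, and no matches overlapped in the members.
H1f2: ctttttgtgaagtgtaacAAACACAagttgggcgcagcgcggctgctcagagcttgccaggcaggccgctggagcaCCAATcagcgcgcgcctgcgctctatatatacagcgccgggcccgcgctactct
H2aw: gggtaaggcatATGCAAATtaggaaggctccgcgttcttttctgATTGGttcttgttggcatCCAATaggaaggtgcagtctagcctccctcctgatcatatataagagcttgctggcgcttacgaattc
H2bc18: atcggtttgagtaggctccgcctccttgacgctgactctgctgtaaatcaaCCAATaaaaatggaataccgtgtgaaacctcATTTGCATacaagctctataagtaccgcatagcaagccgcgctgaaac
H4c4: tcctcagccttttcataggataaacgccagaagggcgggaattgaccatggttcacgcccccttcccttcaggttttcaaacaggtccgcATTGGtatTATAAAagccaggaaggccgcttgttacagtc
The stretches lie at chr13:23738677-23738806, chr11:58954555-58954684, chr3:96269570-96269699 and chr13:23581438-23581567, all on the plus strand. In H1f2 the H1 box starts 112 bases and CCAAT 54 bases before the start site, and in H2bc18 the octamer starts 48 bases before it. H2aw holds the octamer on the other strand, 119 bases before the start site. In H4c4 TATAAA starts 32 bases before it. A promoter entry was matched for 26 of the 31 genes, and H2bc21, H2bc4, H2bu1-ps, H3c7 and H4c14 had none. The H1 box stood in 4 of 5 H1 promoters and in 7 of the 26 in all, against 2.98% of 32851 RefSeq promoters over the same 130 bases. The octamer stood in 4 of 5 H2A and 4 of 8 H2B promoters and in no H1, H3 or H4 promoter, against 0.868% of all promoters. The windows of H2ac8 and H2bc8, on opposite strands, overlap, and the same octamer site is counted for both genes. CCAAT stood in 20 of the 26 and TATAAA in 11, against 22.4% and 6.83% of all promoters. These matches describe letters in a fixed window and carry no information on binding in these kidneys.

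To ask whether histone transcripts differ between aged and young kidneys, the age groups were compared with limma over all 19938 genes, with p-values adjusted by the Benjamini-Hochberg method. Of the 31 histone genes 1 fell at 96 weeks and 0 rose at an adjusted p under 0.05 from limma. H2bc21, an H2B gene of cluster 2 known in mice for the H2B form of olfactory neurons, was the gene that fell. Over all genes 6.72% passed this threshold, 4.31% (860 genes) as higher and 2.40% (479 genes) as lower at 96 weeks, and this split was 484 higher and 505 lower after repeated quantile normalization. At an unadjusted p under 0.05 from limma 4 of the 31 passed (H2bc21, H2bu2 and H4f16 lower, H1f2 higher), which is 12.9% against 28.5% of all genes. No histone gene changed by at least 1.5-fold with an unadjusted p under 0.05, as 1.60% of all genes did. The methods' t-test called 0 of the 31 in either direction after Benjamini-Hochberg adjustment, and 3 at an unadjusted p under 0.05.

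The differences were small and lay on both sides of 0. The log2 difference of 96 weeks minus 14 weeks was positive for 15 and negative for 16 histone genes, with a median of -0.01 beside -0.03 over all genes, and it ranged between -0.49 (H2bc21) and 0.32 (H1f2). For 28 of the 31 genes (90.3%) the 95% confidence interval lay within 1.5-fold in either direction (0.58 on the log2 scale), as it did for 92.1% of all genes. Of the 31 genes 14 were dim, under the 30th percentile of signal, where a gene cannot be told from an absent one. Of these 14, 13 are among the 28, and their median absolute difference was 0.04, against 0.13 in the 17 brighter genes. At an unadjusted p under 0.05 from limma 1 of the 14 passed, against 3 of the 17. The age groups did not overlap for 2 histone genes, H2bc21 and H2bu2, both lower at 96 weeks. Over all genes the groups did not overlap for 5.79% as lower and 7.49% as higher at 96 weeks. Class medians were -0.01 for H1, 0.03 for H2A, -0.11 for H2B, 0.01 for H3 and -0.04 for H4. In H2B 8 of 11 genes had negative differences, and the classes were not tested against each other.

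**Figure D1:**
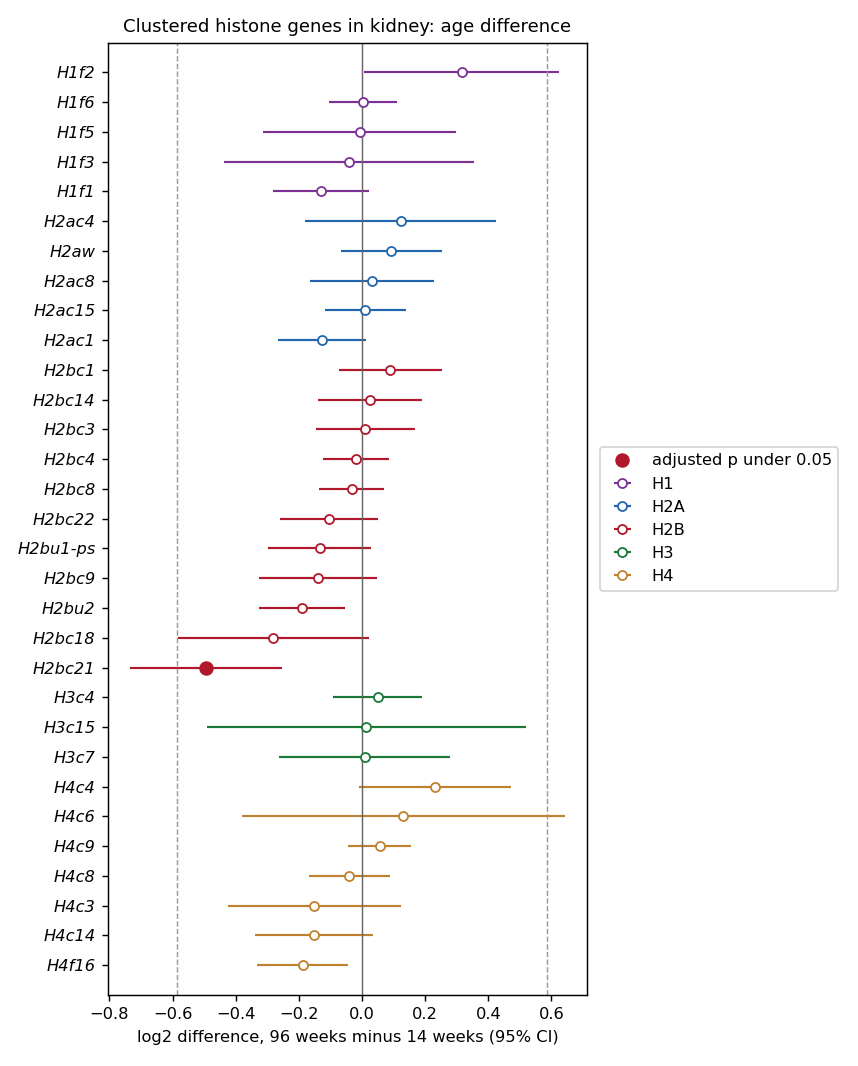
Log2 difference in RMA expression of the 31 clustered histone genes, 96 weeks (n = 5) minus 14 weeks (n = 4), by class. Points are limma estimates, bars are 95% confidence intervals, and dashed lines mark 1.5-fold. Only H2bc21 (filled, -0.49) passed an adjusted p under 0.05, and 28 of the 31 bars stay between the dashed lines.

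The whole kidneys held the transcripts of their tissue at both ages. All 14 measured markers of tubule and glomerulus were at 6.53 or above on the log2 scale in every kidney, with 0 called, 1 at an unadjusted p under 0.05 and a median log2 difference of 0.05. Of the markers of B cells and plasma cells 2 of 9 rose (median 1.03), and of those of macrophages and dendritic cells 3 of 12 rose (median 0.70), beside 4.31% of all genes. Those of T cells and NK cells had 0 of 10 called and 3 at an unadjusted p under 0.05 from limma, at a median of 0.26 that was 0.07 without replicate 4 at 96 weeks. The mean deviation of the B cell list was 0.11 to 1.39 in the 96 week old kidneys against -0.85 to -0.77 in the 14 week old ones, and that of the macrophage list -0.14 to 1.02 against -0.52 to -0.39. The part of these cells in the histone values was not tested. Array medians ran between 6.219 and 6.255 at 96 weeks and between 6.257 and 6.292 at 14 weeks, so that the ages did not overlap. Correlations between arrays ran between 0.978 and 0.992. In bulk tissue, fewer cells of a type and less RNA per cell cannot be told apart.

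Among the linker histones, H1f2 had the brightest probe set and the largest positive difference of all members. Its log2 values were 10.91, 10.68, 10.59, 10.26 and 10.43 in the kidneys of 96 weeks, against 10.18, 10.57, 10.28 and 10.01 in those of 14 weeks. Of the aged kidneys 3 lay above every young one, and the other 2 lay within the young range. The mean was 10.57 ± 0.25 at 96 weeks (SD, n = 5) and 10.26 ± 0.23 at 14 weeks (SD, n = 4), a log2 difference of 0.32 (95% interval 0.01 to 0.62). This did not pass (adjusted p = 0.17 from limma, exact two-sided permutation p = 0.095). The other H1 genes, H1f1, H1f3, H1f5 and the testis form H1f6, had differences between -0.13 and 0.00. H1f3 had a wider spread at 96 weeks (SD 0.38) than at 14 weeks (SD 0.19), and so had H1f5 (SD 0.32 at 96 weeks and 0.01 at 14 weeks).

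Of the H2A genes none passed, with 0 of 5 at an unadjusted p under 0.05 from limma and differences between -0.13 (H2ac1, a testis form) and 0.12 (H2ac4). H2aw, the H2A gene of cluster 3 and the brightest of its class, had log2 values of 8.48, 8.31, 8.13, 8.27 and 8.23 at 96 weeks, against 8.09, 8.26, 8.23 and 8.18 at 14 weeks. The groups overlapped, and the log2 difference was 0.09 (95% interval -0.07 to 0.25, adjusted p = 0.40 from limma), and it was -0.003 after repeated quantile normalization. H2ac4 had one of the dimmer probe sets, with means of 3.08 ± 0.29 at 96 weeks and 2.96 ± 0.12 at 14 weeks (SD). H2ac1 shared 1 value, 6.68, in 6 of the 9 arrays, and all 5 aged kidneys lay at or below that value.

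H2B held the only gene that passed and the 3 most negative differences of all members. H2bc21 had log2 values of 8.69, 8.95, 8.67, 8.93 and 8.86 in the kidneys of 96 weeks, against 9.18, 9.55, 9.47 and 9.06 in those of 14 weeks. Every aged kidney lay below every young one, with 8.95 as the highest aged and 9.06 as the lowest young value. The mean was 8.82 ± 0.13 at 96 weeks (SD, n = 5) and 9.31 ± 0.23 at 14 weeks (SD, n = 4), so that H2bc21 fell by 0.49 on the log2 scale (standard error 0.11, 95% interval -0.73 to -0.25), a fold change of 0.71. The adjusted p was 0.028 from limma. The exact two-sided permutation p was 0.0079, the smallest that the 126 regroupings allow, and it restates the lack of overlap. The call was lost with an adjusted p of 0.064 without replicate 2 and of 0.073 without replicate 3 at 14 weeks, of 0.06 without replicate 1 and of 0.05, just above the threshold, without replicate 5 at 96 weeks, and of 0.064 without replicates 3 and 4 at 96 weeks together. It was also lost in the methods' t-test (adjusted p = 0.089), while the log2 difference stayed between -0.58 and -0.42 over 21 alternative settings (adjusted p between 0.014 and 0.089).

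The other members from cluster 2 had smaller differences than H2bc21. H2bc18, the other H2B member from this cluster, had log2 values of 6.16, 6.41, 6.06, 5.97 and 5.65 at 96 weeks, against 6.10, 6.50, 6.35 and 6.37 at 14 weeks. The groups overlapped, with 3 aged kidneys below every young one, and the difference of -0.28 (95% interval -0.58 to 0.02) did not pass (adjusted p = 0.20 from limma) and was -0.18 without replicate 5 at 96 weeks. H4c14 had a difference of -0.15, which was -0.09 without replicate 2 at 96 weeks and -0.24 after repeated quantile normalization. H3c15 (0.01) was the last of the 4 members from cluster 2, which has 10 genes in the RefSeq gene table. The rest of these genes had no probe set of their own. The median of the 4 members was -0.22, beside 0.01 for the 23 members from cluster 1. The difference between clusters was not tested.

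H2bu2, an H2B gene of cluster 3, was the other gene without overlap. Its log2 values were 4.97, 4.89, 4.77, 4.93 and 4.95 at 96 weeks, against 5.00, 5.07, 5.22 and 5.08 at 14 weeks. The aged and young kidneys nearest to each other were 0.03 apart, and the probe set was dim, below the 30th percentile of all genes. The difference was -0.19 (95% interval -0.33 to -0.05, adjusted p = 0.086 from limma). It was -0.09 after repeated quantile normalization (adjusted p = 0.41 from limma) and -0.10 after cyclic loess (adjusted p = 0.36 from limma). The exact two-sided permutation p of 0.0079 restates the lack of overlap for which H2bu2 was named and adds no support. Over all genes 5.79% lacked overlap in this direction. H2bc4, the brightest H2B gene, had means of 10.88 ± 0.06 at 96 weeks and 10.90 ± 0.03 at 14 weeks (SD) and an interval of the difference of -0.12 to 0.09. The other H2B genes H2bc9 (-0.14), H2bu1-ps (-0.13), H2bc22 (-0.11), H2bc8 (-0.03), H2bc3 (0.01), H2bc14 (0.03) and H2bc1 (0.09), a testis form, had adjusted p-values of 0.25 or more from limma.

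**Figure D2:**
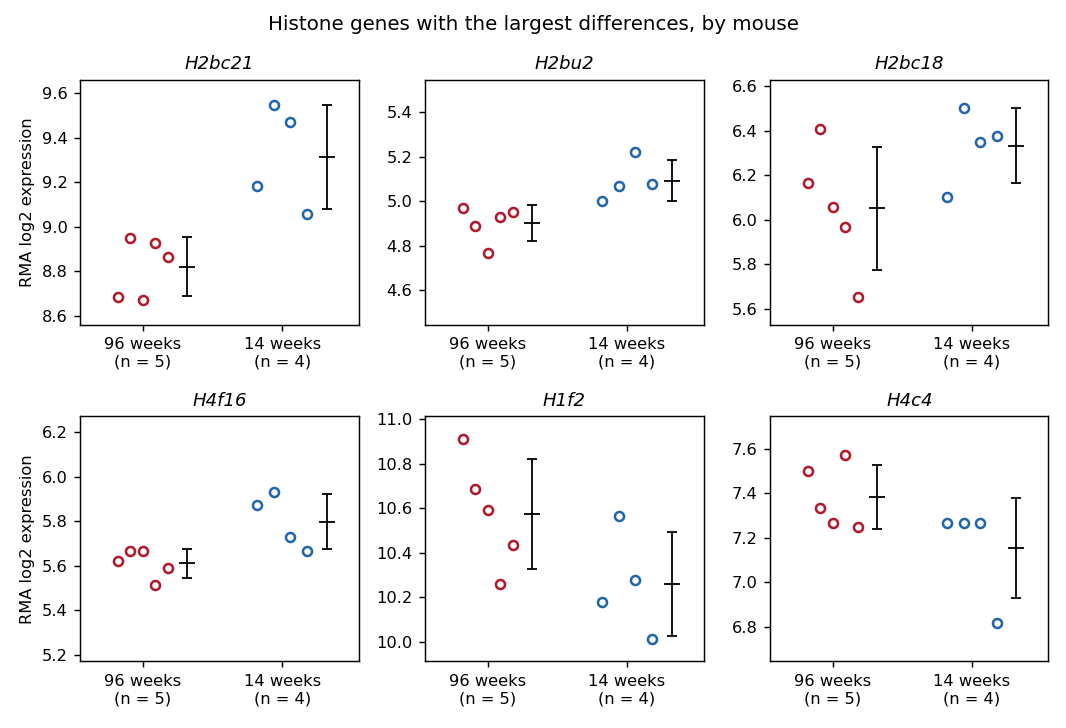
RMA log2 expression of H2bc21, H2bu2, H2bc18, H4f16, H1f2 and H4c4 in kidneys of 96 weeks (n = 5, left in each panel) and 14 weeks (n = 4, right). Circles are mice, the bar is the mean with 1 SD, and every panel spans the same log2 range. In H2bc21 and H2bu2 all aged kidneys lie below all young ones, while the groups overlap or touch in the other 4 panels.

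H3 had only 3 genes with a probe set of their own, and none passed. The differences were 0.01 for H3c7, 0.01 for H3c15 and 0.05 for H3c4, and 0 of 3 passed an unadjusted p under 0.05 from limma. H3c4, the brightest of them, had means of 5.87 ± 0.08 at 96 weeks and 5.82 ± 0.10 at 14 weeks (SD), with an interval of the difference of -0.09 to 0.19. H3c15 varied most within the ages, with SDs of 0.40 at 96 weeks and 0.41 at 14 weeks, and its interval of -0.49 to 0.52 leaves a change of up to these sizes undetected.

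Among the H4 genes, which encode nearly the same protein, differences went both ways and 0 of 7 passed (1 of 7 at an unadjusted p under 0.05 from limma). H4f16, which stands outside the clusters, had log2 values of 5.62, 5.66, 5.66, 5.51 and 5.59 at 96 weeks, against 5.87, 5.93, 5.73 and 5.66 at 14 weeks. The highest aged and the lowest young kidneys shared 1 value, and the difference was -0.19 (95% interval -0.33 to -0.04, adjusted p = 0.10 from limma, exact two-sided permutation p = 0.024), and it was -0.12 after repeated quantile normalization and -0.11 after cyclic loess. H4c14, the brightest H4 gene, had means of 7.54 ± 0.15 at 96 weeks and 7.69 ± 0.11 at 14 weeks (SD). H4c4 went the other way, with log2 values of 7.50, 7.33, 7.27, 7.57 and 7.25 at 96 weeks, against 7.27, 7.27, 7.27 and 6.82 at 14 weeks. Its difference of 0.23 (95% interval -0.01 to 0.47, adjusted p = 0.19 from limma) had 3 aged kidneys above every young one and was 0.12 without replicate 4 at 14 weeks. H4c6 had a difference of 0.13, which rested on replicate 4 at 96 weeks and was -0.06 without it and -0.03 without replicate 1 at 14 weeks. The other H4 genes, H4c3, H4c8 and H4c9, lay between -0.15 and 0.06.

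The arrays were close to each other over the members as a whole. The median deviation of the 31 genes from their means was between -0.05 and 0.01 in the 5 aged kidneys, against -0.01 to 0.06 in the 4 young ones. The median SD within an age was 0.13 at 96 weeks and 0.11 at 14 weeks, and 22 of the 31 genes (71.0%) had the wider spread at 96 weeks, as had 58.9% of all genes. For 12 of the 31 (38.7%) 3 or more arrays shared the same value, as they did for 33.3% of all genes.

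**Figure D3:**
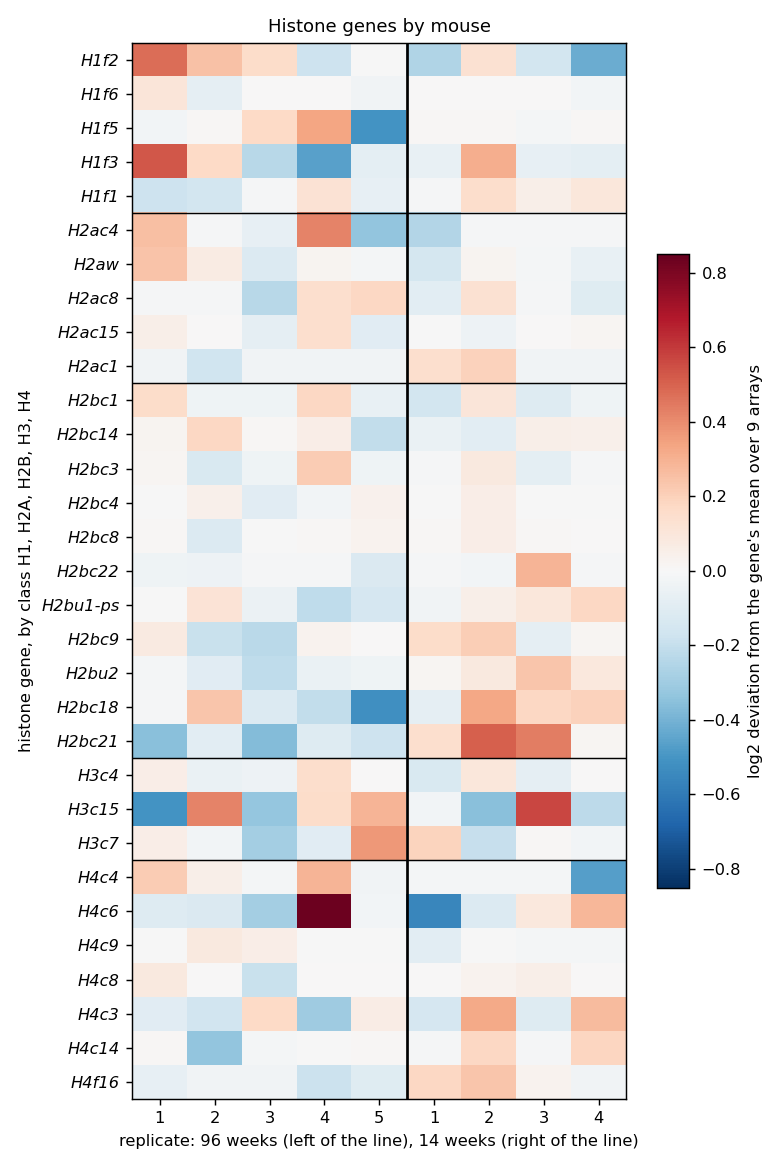
Log2 deviation of each of the 31 histone genes from its mean over the 9 arrays, with 96 week old mice left and 14 week old mice right of the vertical line and classes parted by horizontal lines. Red is above and blue below the gene's mean. The rows of H2bc21 and H2bu2 are the ones in which the ages do not overlap, and the darkest field is H4c6 in replicate 4 at 96 weeks (0.84).

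Probe sets that cannot be given to 1 histone gene mostly had positive differences. The sequences of histone genes of a class are near copies, and 27 probe sets list several symbols with at least 1 clustered histone gene among them. These sets were looked at after the values of the 31 genes were known and are no members. Of the 31 genes 19 are also listed in such a shared set and 12 are not, H2bc21, H2bc18, H2bu2, H4f16 and H1f2 among them. The shared sets were fitted with all 23410 annotated probe sets, of which 8.93% passed an adjusted p under 0.05 from limma. Of the 27 sets 26 had a positive difference, 2 rose, 0 fell and 14 had an unadjusted p under 0.05, all 14 higher at 96 weeks. Over all annotated probe sets 29.4% had an unadjusted p under 0.05 in either direction. The 14 were 8 after repeated quantile normalization, with 24 positive differences, and 9 without replicate 1 at 14 weeks. The median of the 27 was 0.18 beside -0.02 over all annotated probe sets. The groups did not overlap for 8 of the 27, all 8 higher at 96 weeks, as for 2091 (8.93%) of all annotated probe sets in this direction. Sets of a class list nearly the same genes, and 2 pairs held identical values in all arrays, so that the 27 are not independent.

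Both shared sets that rose list mainly H2A genes and were counted as H2A sets, although both also list the H3 gene H3c4. The set with 20 symbols had log2 values of 9.25, 9.28, 9.09, 9.38 and 9.27 at 96 weeks, against 8.84, 8.97, 8.88 and 8.76 at 14 weeks (difference 0.39, standard error 0.07, adjusted p = 0.0086 from limma). The set with 19 symbols had 8.048, 7.967, 7.872, 7.999 and 7.978 at 96 weeks, against 7.590, 7.769, 7.456 and 7.318 at 14 weeks (difference 0.44, standard error 0.08, adjusted p = 0.014 from limma). Every aged kidney lay above every young one in both. Both lists hold the S phase genes H2ac4, H2ac8 and H2ac15 and the variant H2ax, and the longer list holds the variant H2aj as well. The own sets of H2ac4, H2ac8 and H2ac15 had differences of 0.12, 0.03 and 0.01. These own sets were dim, under the 30th percentile of signal, where a gene cannot be told from an absent one. Whether H2ac4, H2ac8 and H2ac15 rose can therefore not be read from them. The part of each listed gene in the shared sets was not tested. H4 sets had a median of 0.34 (6 sets), H2B sets 0.16 (7 sets) and H3 sets 0.15 (10 sets), with 0 called in each. Replicate 4 at 96 weeks had the highest median deviation of the 9 arrays in the H3 sets (0.32) and H4 sets (0.45). With the replicate number of the labels as a block the count of shared sets that rose was 0. In the aged kidneys, replicates 1 to 5 in order, the mean deviation of the B cell list was 0.76, 0.11, 0.81, 1.39 and 0.21. That of the macrophage list was 0.13, -0.14, 0.84, 1.02 and -0.03. The part of these cells in the shared sets was not tested.

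**Figure D4:**
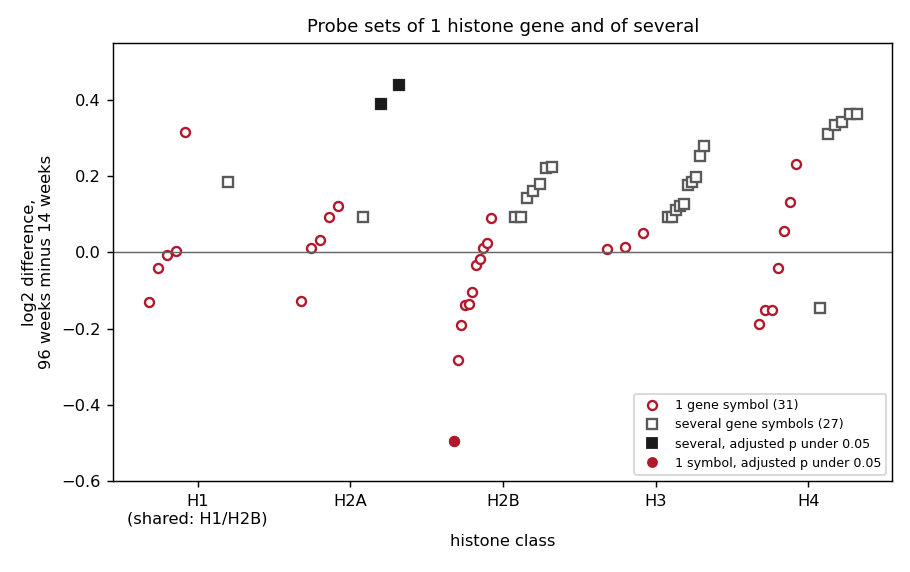
Log2 difference, 96 weeks minus 14 weeks, of histone probe sets by class: circles are the 31 sets with 1 gene symbol and squares the 27 sets with several, filled where the adjusted p was under 0.05. The circles lie on both sides of 0 (median -0.01), and all squares except 1 lie above it (median 0.18).

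Histone variants made outside S phase were measured for 9 genes of a chosen list, of which 2 rose and 0 fell, with a median of 0.11. In the 6 related lists, this one included, 8 of 90 measured genes passed an adjusted p under 0.05. Over all genes 6.72% passed, 4.31% as higher at 96 weeks. H2aj, an H2A variant reported in senescent human cells, rose by 0.41 (adjusted p = 0.026 from limma), with means of 8.36 at 96 weeks and 7.94 at 14 weeks. Macroh2a1, a large H2A variant of silent chromatin, rose by 0.36 (adjusted p = 0.027 from limma). Its paralogue Macroh2a2 had a difference of -0.27 (adjusted p = 0.13 from limma) with every aged kidney below every young one. H2ax, which marks broken DNA when phosphorylated, differed by 0.21 (adjusted p = 0.082 from limma). The call of H2aj was lost without replicate 1 at 14 weeks or replicate 1, 2 or 5 at 96 weeks (adjusted p between 0.053 and 0.056 from limma), and that of Macroh2a1 without replicate 3 at 14 weeks or replicate 1 or 2 at 96 weeks (between 0.054 and 0.057).

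Of 15 genes for the transcription and 3′ end processing of histone messages 2 rose and 0 fell, beside 4.31% and 2.40% of all genes. The median of the 15 was 0.07, and 0.02 without replicate 4 at 96 weeks. The 2 that rose were Lsm10, a part of the U7 particle that cuts histone messages (0.31, adjusted p = 0.035 from limma), and Eri1, a nuclease that binds their stem loop (0.37, adjusted p = 0.040 from limma). Leaving out any array except replicate 2 at 14 weeks or replicates 4 and 5 at 96 weeks ended the call of Lsm10 (adjusted p between 0.057 and 0.097 from limma), and any array except replicates 4 and 5 at 96 weeks that of Eri1 (between 0.055 and 0.11). Npat, the cell cycle regulated activator of the clusters, differed by 0.00 and Slbp, the stem loop binding protein, by 0.09 (adjusted p = 0.96 and 0.40 from limma). Of 18 histone chaperones 0 passed at an adjusted p under 0.05 and 3 at an unadjusted p under 0.05 from limma, with a median of 0.04. The share of all genes at an unadjusted p under 0.05 was 28.5%.

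Among 27 genes of S phase, in which clustered histones are made, 2 rose and 0 fell (median 0.11, with 23 positive differences). Over all genes 4.31% rose, and 8645 of 19938 had a positive difference. The 2 S phase genes that rose are of the replicative helicase: Mcm7 (0.54, adjusted p = 0.025 from limma) and Mcm6 (0.71, adjusted p = 0.041 from limma). Replicate 4 at 96 weeks was the highest array for 19 of the 27, and without it the median was 0.08. The mean deviation of the list was 0.44 in that kidney and -0.10 to 0.10 in the other aged kidneys. Tk1, thymidine kinase, had a difference of -0.26 (adjusted p = 0.052 from limma). In mitosis 0 of 15 genes passed and 1 had an unadjusted p under 0.05 from limma, beside 28.5% of all genes. The median of the 15 was 0.40, with mean deviations of -0.40 to 1.34 in the aged kidneys, against -0.35 to -0.18 in the young ones. Replicate 4 at 96 weeks was the highest array for 14 of the 15, and without it the median was 0.17. Among 6 inhibitors of cyclin-dependent kinases 2 rose and 0 fell (median 0.05), Cdkn2c (0.58, adjusted p = 0.013 from limma) and Cdkn1c (0.57, adjusted p = 0.032 from limma). Without any 1 of the young replicates the calls of Mcm6 (adjusted p between 0.079 and 0.1 from limma) and Cdkn1c (between 0.065 and 0.08) were lost, and without replicate 1, 2 or 3 at 14 weeks that of Mcm7 (between 0.064 and 0.068). Of the aged replicates 1, 2 and 3 decided Mcm6 (0.079, 0.051 and 0.058), replicate 1 Mcm7 (0.056) and replicate 2 Cdkn1c (0.069), while no left-out array ended the call of Cdkn2c. Of the 8 calls in the related lists 0 were left in the methods' t-test (adjusted p between 0.059 and 0.12), 2 with the replicate block and 2 after repeated quantile normalization, Mcm7 and Cdkn2c in both.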

How the data were processed

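Kidney RNA of 9 mice was measured on arrays. The deposited log2 values, 35557 probe sets per array, were made by the authors with Affymetrix Power Tools 1.12.0 (RMA, quantile normalization). Which genome build the array annotation rests on is not given in the sources used here. Of the probe sets 21789 have 1 symbol, 1621 have several and 12147 are unnamed. It gives current symbols, so the Hist names were matched by gene ID through the synonyms of the RefSeq table (GRCm38.p6). Each gene was represented by its brightest probe set. No deposited column was left unmapped (0).

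The comparison of ages used limma 3.58.1 in R 4.3.3 with lmFit and eBayes, adjusted over all genes. The script was tested on simulated data. Dim genes were kept. Without a measure of background a dim gene cannot be told from an absent one. For single histone genes the difference of the age means was also compared by exact permutation of the arrays.

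Named were members that passed, the 5 largest rises and falls in value, the brightest of each class, members whose groups did not overlap, and passing genes of related lists. The members and lists were chosen with earlier results of these data known. Other genes in the text were named for their role after their values were seen. Alternatives covered the test, array weights, dim genes, scaling, choice of probe sets, the replicate block and left-out arrays. Fits of every annotated probe set and of shared histone probe sets and list medians without replicate 4 at 96 weeks were added after seeing the data. The replicate numbers did not pair the mice.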

Additional observations from a re-analysis of the deposited data

Results flagged for a closer look

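In the 12 named histone genes, 24 groups of 4 or 5 mice were searched for a mouse far from the others of its age, and 5 groups held such a mouse. Chance flags about 1 in 20 groups, but these genes were named partly for large differences, which 1 distant mouse can make. The count of 5 can therefore not be set against that rate. In H4c6, replicate 4 at 96 weeks was at 5.87 (the other 4 between 4.74 and 5.01), and in H4c14, replicate 2 at 96 weeks was at 7.27 (the other 4 between 7.59 and 7.61). In 3 genes the other young mice shared 1 value: replicate 4 at 14 weeks was at 6.82 in H4c4 (the others at 7.27), replicate 1 at 14 weeks at 2.78 in H2ac4 (the others at 3.02), and replicate 2 at 14 weeks at 10.94 in H2bc4 (the others at 10.88). A gap counts as the whole range where the other values are tied, so that these 3 differ from their groups by 0.06 to 0.45 on the log2 scale.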

How the results depend on the processing

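The count of histone genes that rose was 0 in all 21 alternative settings. The count that fell was 0 in place of 1 in the methods' t-test, with the replicate block and without replicates 3 and 4 at 96 weeks together, and 0 to 1 when an array was left out. With the replicate block, which used replicates 1 to 4 of each age, H2bc21 had a difference of -0.51 (adjusted p = 0.073 from limma), and the shared histone probe sets that rose were 0 in place of 2. Same-numbered mice deviated together only weakly (correlations of 0.08, 0.02, -0.04 and 0.01), and only the mouse of replicate 1 correlated best with its own number. The median of the 31 genes was 0.04 (0.039) after repeated quantile normalization and 0.04 (0.044) after cyclic loess, and it lay between -0.04 and 0.00 (-0.038 to 0.004) when an array was left out. Differences that changed sign, none of them past the threshold, were H2aw after repeated quantile normalization (-0.003), H4c6 (-0.030 when the young replicate 1 was left out, -0.064 for the aged replicate 4, -0.013 for the aged replicates 3 and 4 together, and -0.064 to 0.250 over all left-out arrays) and H2bc4 (0.004 when the aged replicate 3 was left out, 0.016 for the aged replicates 3 and 4 together, and -0.032 to 0.004 over all left-out arrays). Over all genes 860 rose and 479 fell, and 273 and 94 did in the methods' t-test, 279 and 89 with the replicate block, 484 and 505 after repeated quantile normalization, 562 and 379 after cyclic loess, 739 and 286 without replicates 3 and 4 at 96 weeks, and 374 to 751 and 154 to 384 when an array was left out. The filter on dim genes kept 17 of the 31 genes and left no value for H2ac4, H4c6 and H2bu2. In the related lists every named rise lost its call in some setting, with the fewest losses for Cdkn2c (1 of 21) and the most for Eri1 (12 of 21). Of the 8 rises 0 passed in the methods' t-test, 2 with the replicate block, 2 after repeated quantile normalization and 6 after cyclic loess. The causes were not tested.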
